A study of Mus musculus with 12 samples.

Results

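The 10 genes described here are 6 ligands (Tnf, Tnfsf4, Tnfsf8, Tnfsf10, Tnfsf13b and Tnfsf14) and 4 receptors (Tnfrsf1a, Tnfrsf1b, Tnfrsf4 and Tnfrsf9) of the tumour necrosis factor superfamily. Every probe set annotated to these symbols was taken, 18 of the 45101 probe sets in the deposited table. A probe set is a group of short probes on an Affymetrix array that together report one transcript. RNA came from mast cells grown out of the bone marrow of C57BL/6 mice, on 12 single-colour arrays. Cells of 6 samples had been kept for between 4 and 6 weeks in IL3 (interleukin 3, 30 ng/ml), and those of the other 6 for as long in IL3 at the same dose with stem cell factor (SCF, the ligand of the receptor KIT, 100 ng/ml unless indicated otherwise). The submitters put mast cell purity above 99%. All samples are IL3 cultures of 1 mouse strain with no added stimulus named in the labels. The comparison asks how growth with SCF alters the resting transcripts of mast cells. No label tells whether replicates are independent cultures or mice. The p-values thus cover the spread among these 12 samples alone, and that spread may be technical.

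Ligands of this superfamily are made as membrane proteins that act as trimers, either on the cell surface or after a protease has cut them free, and each binds 1 or a few receptors. Some receptors with a death domain, such as TNF receptor 1, recruit TRADD and can lead to caspase activation. The costimulatory receptors bind TRAF adaptors and activate NF-kB and stress kinases. Mast cells are known as cells that can hold preformed TNF and make more of it when their IgE receptor is crosslinked.

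Array medians ran from 151 to 203 signal units, and precision is limited by having 6 arrays per group. All 11 mast cell markers, among them Kit, Fcer1a and Cpa3, were above the dim level on every array, where dim means at or below the 40th percentile of that array (61.1 to 102 signal units). By the brightest probe set of each, Mcpt4 rose (log2 fold change 4.85), 0 fell and 10 did not pass. Mcpt4 had 328 to 799 in IL3 and 11141 to 14864 with SCF. A second probe set of Hdc, Tpsb2 and Ms4a2 was higher (0.78, 0.91 and 0.15). The summed signal of 10 monocyte and macrophage markers was 13022 to 17834 on the IL3 arrays and 4209 to 5275 with SCF, with Cd14 and Itgam dim on all 12 arrays. Of the 7 that were tested Cx3cr1, Lyz1, Lyz2 and Fcgr1 fell (log2 fold changes -3.90, -1.96, -1.59 and -1.32), Cd68 rose (1.28), and Ccr2 and Adgre1 had -0.23 and 0.04 and did not pass. Fcgr1 was dim on 5 SCF arrays and met the filter for testing through the IL3 arrays, which favours a difference. For 10 neutrophil markers IL3 replicates 3 and 6 had sums of 5557 and 6918, the remaining IL3 arrays had 289 to 1299, and no SCF array exceeded 337, with Elane, Ltf and Csf3r dim on all 12. Markers of B cells summed to 234 to 600 without SCF and 119 to 262 with it, and 4 of 6 were dim on all 12 arrays. The 1 tested, Ighm, fell (log2 fold change -2.55), with 172 to 402 in IL3 and 13.7 to 101 with SCF. It was dim on 4 SCF arrays and met the filter through the IL3 arrays. For T and NK cells the sums were 111 to 384 and 121 to 267, with 5 of 7 dim throughout. Nkg7, the 1 tested, fell (log2 fold change -1.40) and was dim on 2 IL3 and 4 SCF arrays. Dendritic cell markers gave 895 to 1612 and 850 to 1334, with 5 of 10 dim throughout. Basophil and eosinophil markers gave 18013 to 22111 and 20667 to 22878, and Epx alone of 7 was dim throughout. Most of that sum was Cd200r3, with 15059 to 16656 in IL3 and 18397 to 20413 with SCF. Cd200r3 and Il5ra rose (log2 fold changes 0.31 and 1.04), while Mcpt8, Ccr3 and Siglecf had -0.59, -0.44 and -0.23 and did not pass. In bulk RNA, fewer cells of a type and less RNA per cell cannot be told apart. The part these other cells have in the results below was not tested, except where a value is given.

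Of the 10 genes, Tnfrsf9 and Tnfsf8 rose several-fold with SCF, Tnfrsf1b rose slightly in a call that many alternatives lost, and no gene fell. Tnf was the most variable member, spanning more than an order of magnitude among IL3 samples while the SCF samples lay close together. In all, 14 of the 18 probe sets, from 9 genes, were bright enough to be tested (above the dim level on at least 6 arrays), and each gene is led by its brightest tested probe set. Of these 9 genes 3 rose, 0 fell and 6 did not pass (limma, Benjamini-Hochberg adjusted p below 0.05 over 27167 probe sets). Among all 11429 genes tested in that way 33% were called, 17.5% higher and 15.5% lower, so the share of members called was close to that of genes in general. A rise or fall of at least 2-fold was less common, at 1.92% and 2.94% of all genes, and 2 of the 9 members had such a rise. The members were chosen with earlier results of these data known, so these shares are a description. By probe set, 4 of the 14 rose and 0 fell, against 30.9% called over all probe sets tested (17.3% higher and 13.6% lower). The median log2 fold change was 0.08 over the 9 members and 0.02 over all genes.

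**Figure D1:**
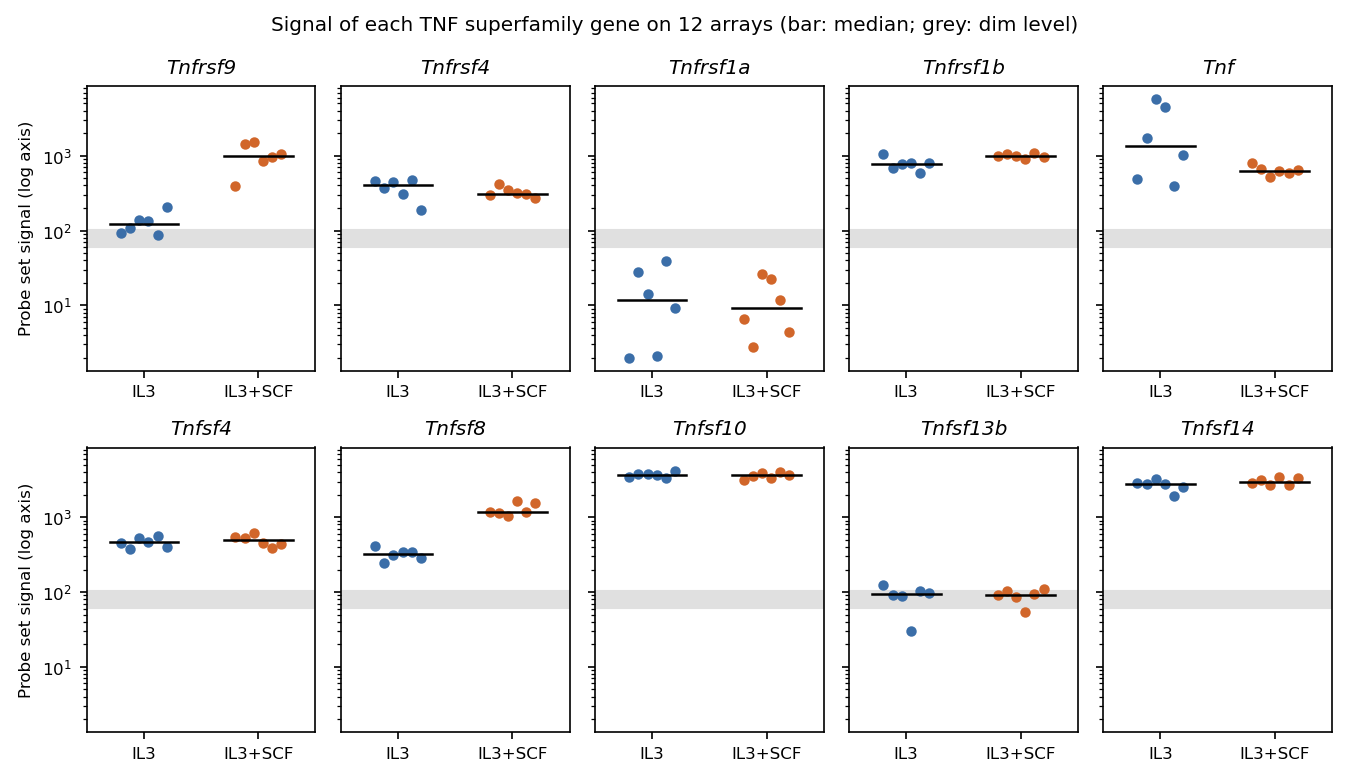
Signal of the leading probe set of each gene (the single probe set for Tnfrsf1a) on a log axis, with 1 point for each of the 6 IL3 and 6 IL3+SCF arrays, a bar at each median and a grey band for the range of the dim level (61.1 to 102). The groups are apart for Tnfrsf9 and Tnfsf8, Tnf is spread over 390 to 5745 in IL3, and Tnfrsf1a lies below the band on every array.

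Tnfrsf9 encodes 4-1BB (CD137), a costimulatory receptor best known on activated T cells. The brightest of its 3 probe sets, 1460469_at, had a signal of 88.0 at the lowest, 121 at the median and 206 at the highest in IL3, and of 390, 1006 and 1508 with SCF. All 6 SCF arrays were above all 6 IL3 arrays, and SCF replicate 1 had the lowest value of its group. The log2 fold change was 2.79 ± 0.29 (SE, n = 6 and 6, adjusted p = 2.24e-05), or 6.92-fold on the log2(signal + 16) scale. That scale understates the change of dim genes, and 1 IL3 array was dim. It was the 19th largest rise among the 27167 probe sets. A second probe set, 1428034_a_at, had 26.3 to 141 in IL3, where 4 arrays were dim, and 185 to 626 with SCF (log2 fold change 2.38 ± 0.35, adjusted p = 0.000281). It passed the filter on the SCF arrays alone, which favours a difference. Both probe sets had their lowest SCF value on replicate 1. The third, 1421481_at, was dim on all 12 arrays, with 11.3 to 31.9 in IL3 and 8.26 to 22.5 with SCF, and was not tested.

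Tnfsf8 encodes the ligand of CD30. Its 1 probe set, 1450272_at, had a signal of 247 at the lowest, 326 at the median and 415 at the highest in IL3, and of 1046, 1173 and 1653 with SCF. None of the arrays was dim, and again no IL3 array reached the lowest SCF array. The log2 fold change was 1.94 ± 0.14 (adjusted p = 9.18e-07), or 3.85-fold. The SD on the log2 scale was 0.25 in IL3 and 0.26 with SCF, larger than that of 64.8% and 74.2% of the probe sets tested, and the highest array was 1.68 times the lowest in IL3 and 1.58 times with SCF. Among all probe sets tested 16.6% had no overlap between the groups. The receptor gene, Tnfrsf8, had signals of 1.39 to 66.6 and was dim on all 12 arrays, so no level is given for it.

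For Tnfrsf9 and Tnfsf8, both higher with SCF, the 250 bases before the start sites are shown, from RefSeq sequences of GRCm38.p6, each on the strand of its gene. Of the 10 members 9 (all but Tnfsf4) matched that table, in 11 windows. Capitals mark matches to 3 motifs searched on both strands: the NF-kB consensus, the STAT motif TTCNNNGAA and the AP-1 motif TGANTCA.
Tnfrsf9, chr4:150927749-150927998, + strand: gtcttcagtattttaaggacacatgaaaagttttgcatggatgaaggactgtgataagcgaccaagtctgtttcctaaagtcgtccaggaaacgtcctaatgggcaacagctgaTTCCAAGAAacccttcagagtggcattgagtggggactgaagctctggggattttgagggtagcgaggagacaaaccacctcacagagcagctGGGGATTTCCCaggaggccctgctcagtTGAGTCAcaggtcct
Tnfsf8, chr4:63861285-63861534, - strand: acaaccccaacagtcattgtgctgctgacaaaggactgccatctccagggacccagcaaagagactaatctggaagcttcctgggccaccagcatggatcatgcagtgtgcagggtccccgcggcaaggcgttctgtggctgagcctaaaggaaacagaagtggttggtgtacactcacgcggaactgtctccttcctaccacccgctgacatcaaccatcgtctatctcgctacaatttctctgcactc
This Tnfrsf9 window lies before the downstream of its 2 listed starts. It holds a STAT match 136 to 128 bases before the start, GGGGATTTCC and GGGATTTCCC as overlapping NF-kB matches between 43 and 33 bases before it, and TGAGTCA 15 to 9 bases before it. The window of the upstream start of Tnfrsf9, and those of Tnfsf8, Tnf, Tnfsf10 and Tnfrsf4, held no match. Of 32536 distinct windows of this length, 7.28% held the NF-kB motif, 7.04% the STAT motif and 6.73% the AP-1 motif. A STAT match was also present in the windows of Tnfrsf1a and Tnfrsf1b, and TGAGTCA in 1 window of Tnfsf13b and in that of Tnfsf14. Letters in a window are a description and not a binding site.

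Over the 12 arrays, the profile of Tnfrsf9 was nearest to those of Lrrc4, Calcrl and Olr1. Nearness is the root mean square difference in log2(signal + 16) after each gene is set to its own mean, and it was 0.40, 0.44 and 0.50. All 3 genes were higher on every SCF array, Lrrc4 for example with 260 to 436 in IL3 and 1192 to 2188 with SCF. Olr1 had 14.3 to 49.8 in IL3, where every array was dim, and 84.9 to 190 with SCF. It passed the filter on the SCF arrays alone, which favours a difference. For a gene with so large a difference between the groups, this measure mostly finds genes with a difference of like size.

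Tnfrsf1b encodes TNF receptor 2, which lacks a death domain and binds TRAF2. Its leading probe set, 1418099_at, had 582 at the lowest, 784 at the median and 1070 at the highest in IL3, and 905, 999 and 1079 with SCF. Of the SCF arrays 5 lay inside the IL3 range, and IL3 replicate 1 was as high as the SCF arrays. The log2 fold change was 0.36 ± 0.12 (adjusted p = 0.0333). The call was lost in 12 of 24 alternatives, including median centring of the arrays (adjusted p = 0.0549), testing without a filter (0.0701), without IL3 replicates 3 and 6 (0.0792) or 4 and 5 (0.0955), and without IL3 replicate 2, 3 or 4 (0.0715, 0.0544 and 0.0506). It was also lost without IL3+SCF replicate 1, 2, 3 or 5 (0.0522, 0.064, 0.0553 and 0.0668). With the replicate number as a block the adjusted p was 0.0754. The range over all alternatives was 0.0029 to 0.0955. A dimmer probe set, 1448951_at, had 38.5 to 148 in IL3 and 28.7 to 107 with SCF and was not tested.

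Tnfrsf4, the costimulatory receptor OX40, had a signal of 188 at the lowest, 408 at the median and 476 at the highest in IL3, and of 268, 312 and 422 with SCF. All SCF values fell inside the IL3 range (log2 fold change -0.14 ± 0.20, adjusted p = 0.637), and IL3 replicate 6 was the lowest array. The 95% interval of the difference, -0.57 to 0.29, leaves room for a change of either sign. Its ligand gene, Tnfsf4 (OX40L), had 374 at the lowest, 460 at the median and 559 at the highest in IL3, and 393, 489 and 609 with SCF. The ranges overlapped almost wholly (log2 fold change 0.08 ± 0.12, interval -0.18 to 0.35, adjusted p = 0.653).

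Tnfrsf1a encodes TNF receptor 1, the death domain receptor of TNF. Its 1 probe set, 1417291_at, had signals of 1.98 to 38.9 in IL3 and 2.81 to 26.3 with SCF. It was dim on all 12 arrays and was not tested, so neither a level nor a difference is given for this gene.

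Tnf, the founding ligand, had 1 probe set, 1419607_at, and no array was dim. The signal was 484, 1711, 5745, 4449, 390 and 1012 on IL3 replicates 1 to 6, and 807, 664, 515, 618, 587 and 643 on IL3+SCF replicates 1 to 6. Replicates 3 and 4 were far above the SCF arrays and replicates 1 and 5 below all of them, so every SCF value fell inside the IL3 range. The highest array was 14.7 times the lowest in IL3 and 1.57 times with SCF. The SD on the log2 scale was 1.59 in IL3, larger than that of 99.8% of the probe sets tested, and 0.21 with SCF, larger than that of 61.7%. The log2 fold change was -1.16 ± 0.59 and did not pass (interval -2.43 to 0.12, adjusted p = 0.159). It passed without IL3 replicate 5 (log2 fold change -1.53, adjusted p = 0.0467), and the adjusted p ranged from 0.0467 to 0.353 over the alternatives. Leaving out IL3 replicate 3 alone gave -0.76 (adjusted p = 0.299), replicate 4 alone -0.83 (0.296) and replicate 6 alone -1.26 (0.168), and leaving out 3 and 6 together gave -0.78 (0.353). On IL3 replicates 1 to 6 the neutrophil sums were 1299, 766, 5557, 289, 400.2 and 6918. The monocyte and macrophage sums on those arrays were 13022, 14054, 15859, 16695, 14180 and 17834, lowest on replicate 1 and highest on replicate 6. The part of either cell type in the spread of Tnf was not tested.

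The genes nearest to Tnf over the 12 arrays were Nfkbid, Ppp1r10 and Nr4a2, at root mean square differences of 0.59, 0.62 and 0.66. Nfkbid encodes a nuclear IkB protein, and Nr4a2 an orphan nuclear receptor of the immediate early class. For Nfkbid the signal was 4250 and 4557 on IL3 replicates 3 and 4, against 1172 to 2239 on the remaining IL3 arrays. Nr4a2 had 5343 and 6004 on the same arrays and 1738 to 2532 on the others. For Ppp1r10, a regulatory subunit of protein phosphatase 1, the values were 2498 and 2230 on replicates 3 and 4 and 499 on replicate 5. Since these genes were chosen for their likeness to Tnf over the same arrays, their high values on replicates 3 and 4 follow from the choice. With SCF Nr4a2 and Ppp1r10 were lower (log2 fold changes -0.80 ± 0.28 and -1.29 ± 0.30, adjusted p = 0.0422 and 0.00654), and Nfkbid had -0.60 ± 0.33 (adjusted p = 0.196). The choice was made over the arrays of both cultures, so these differences too follow in part from it and are a description.

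**Figure D2:**
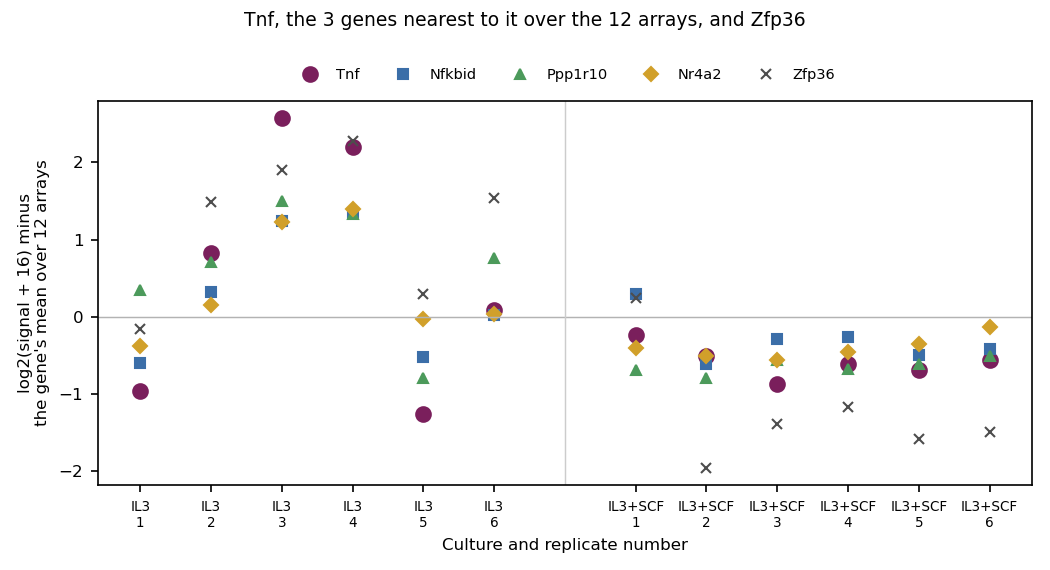
Log2(signal + 16) of Tnf, of the 3 genes nearest to it and of Zfp36 on each array, relative to each gene's own mean over the 12 arrays, by culture and replicate number. IL3 replicates 3 and 4 are the highest for Tnf, Nfkbid, Ppp1r10, Nr4a2 and Zfp36, and the 6 SCF values of Tnf lie close together.

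The remaining ligands did not pass. Tnfsf10 encodes TRAIL, which can trigger death receptors. Its 3 probe sets were above the dim level on every array. The leading one, 1439680_at, had 3384 at the lowest, 3678 at the median and 4176 at the highest in IL3, and 3142, 3649 and 4055 with SCF, where 2 arrays lay below the IL3 range. The difference was within a narrow interval (log2 fold change -0.02 ± 0.08, interval -0.19 to 0.15, adjusted p = 0.875). The others, 1459913_at and 1420412_at, gave 0.09 ± 0.11 and -0.19 ± 0.11 (adjusted p = 0.564 and 0.23), and in the second of these 4 SCF arrays were below the IL3 range and 1 above it. A mouse receptor of TRAIL, Tnfrsf10b, is given below with the rest of the family.

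Tnfsf14 encodes LIGHT, a ligand of the lymphotoxin beta receptor and of HVEM. Its leading probe set, 1450298_at, had 1949 at the lowest, 2782 at the median and 3248 at the highest in IL3, and 2708, 2989 and 3399 with SCF. Of the SCF arrays 2 were above the IL3 range and the others inside it (log2 fold change 0.17 ± 0.11, interval -0.07 to 0.42, adjusted p = 0.273). The other probe set, 1421588_at, gave 0.23 ± 0.15 (adjusted p = 0.273). IL3 replicate 5 was the lowest array on both probe sets. The HVEM gene, Tnfrsf14, exceeded the dim level on only 1 array of each group and was not tested.

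Tnfsf13b encodes BAFF, a survival factor of B cells. Its signals were close to the dim level, at 29.9 to 124 in IL3 and 54.5 to 110 with SCF on 1460255_at (log2 fold change 0.06 ± 0.24, adjusted p = 0.874). A second probe set, 1445251_at, had 6.86 to 126 and 47.2 to 132 and was dim on 4 IL3 and 2 SCF arrays (log2 fold change 0.42 ± 0.40, adjusted p = 0.47). IL3 replicate 4 was the lowest array on both. The third, 1458047_at, was dim on all 12 arrays.

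Of the other 36 ligands and receptors of the superfamily on a list drawn up with earlier results known, 13 were tested, 6 rose, 1 fell and 6 did not pass, against 33% called among all genes. Among the 18 with a probe set that was not tested, 11 were dim on all 12 arrays. A further 5 were not analysed here because no probe set carried their symbol alone. The median log2 fold change of the 13 was 0.21. The number risen was 3 with a filter at the 60th percentile, where fewer of these genes were tested, and 4 after median centring of the arrays.

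The ligand of 4-1BB, Tnfsf9, rose as its receptor did. It had 264 at the lowest, 379 at the median and 398 at the highest in IL3, and 520, 619 and 893 with SCF, with no overlap between groups (log2 fold change 0.87 ± 0.14, adjusted p = 0.000658). SCF replicate 1 was the highest array for this ligand and the lowest for Tnfrsf9. Ltb, the membrane subunit of lymphotoxin, had 83.3 to 192 in IL3 and 182 to 225 with SCF. IL3 replicate 1 overlapped the SCF arrays (log2 fold change 0.81 ± 0.15, adjusted p = 0.00159). Its receptor gene, Ltbr, had 166 to 244 in IL3 and 301 to 467 with SCF, with no overlap (log2 fold change 0.80 ± 0.12, adjusted p = 0.000315). Tnfsf9 and Ltb were the 2 ligands tested outside the 10 genes. Lta, which encodes lymphotoxin alpha and was named after its values were seen, had 46.1 to 133 in IL3 and 17.4 to 62.8 with SCF. It exceeded the dim level on 2 IL3 arrays and on no SCF array, and was not tested.

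Fas, the death receptor of Fas ligand, had the largest rise in the list. Its signal was 295 at the lowest, 310 at the median and 451 at the highest in IL3, and 714, 881 and 998 with SCF (log2 fold change 1.32 ± 0.11, adjusted p = 4.17e-06). Fas ligand itself, Fasl, was dim on all 12 arrays. Tnfrsf10b had 68.8 to 111 in IL3, with 3 arrays dim, and 93.6 to 143 with SCF (log2 fold change 0.38 ± 0.12, adjusted p = 0.0329), a call lost in 12 of 23 alternatives. Tnfrsf13b (TACI), a receptor of BAFF named after its values were seen, rose by 0.24 ± 0.05 (adjusted p = 0.00467).

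Ngfr, the p75 neurotrophin receptor, was the 1 family gene that fell among those tested. It had 1305 at the lowest, 1689 at the median and 1948 at the highest in IL3, and 661, 756 and 927 with SCF, with no overlap (log2 fold change -1.09 ± 0.11, adjusted p = 1.82e-05), and a dimmer probe set gave -0.95. Tnfsf11, which encodes RANKL and was named after its values were seen, was above the dim level on 4 IL3 arrays and on no SCF array. Its signals were 49.2, 117, 152, 1167, 73.0 and 365 on IL3 replicates 1 to 6 and at most 74.7 with SCF. It exceeded the dim level on fewer than the 6 arrays that the filter needs, and so was not tested. With no filter, where Tnfsf11 was tested, 2 genes of this list fell.

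**Figure D3:**
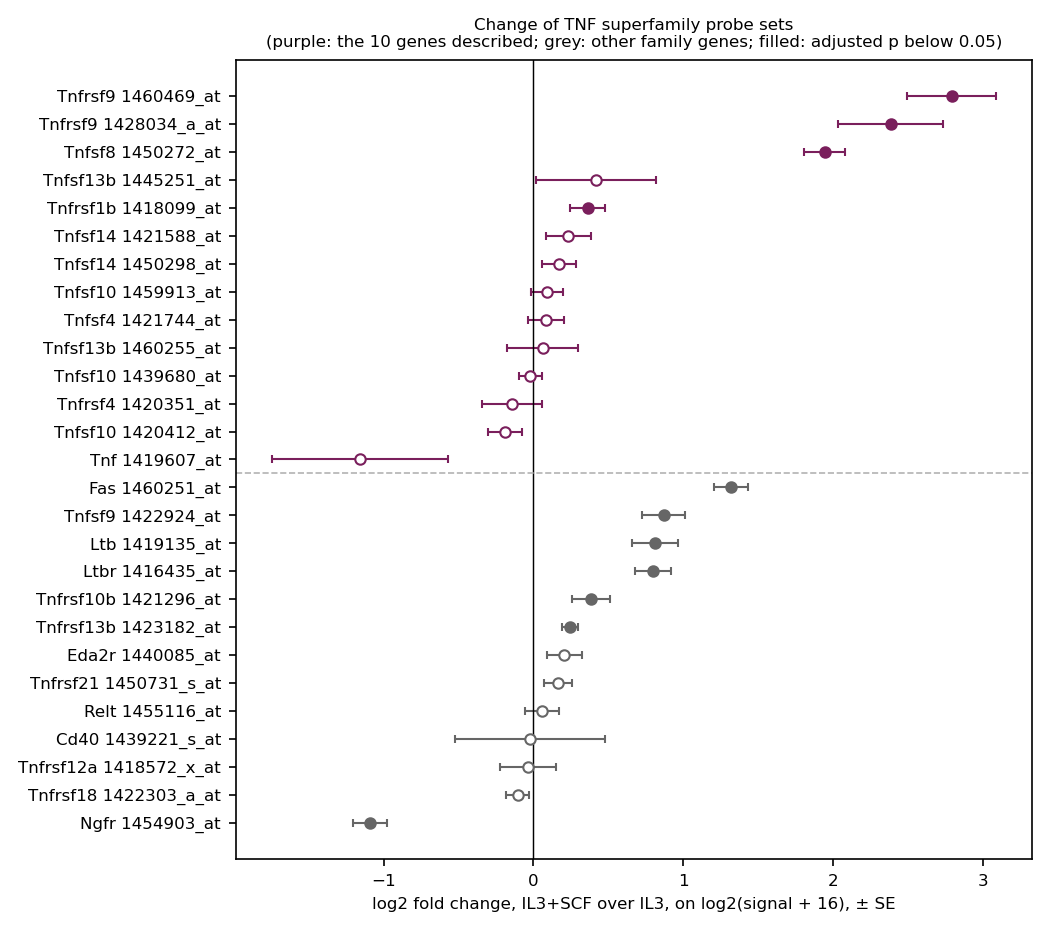
Log2 fold change of IL3+SCF over IL3 (± SE, 6 and 6 arrays) for the 14 tested probe sets of the 10 genes (purple) and the leading probe sets of 13 other family genes (grey), filled where the adjusted p is below 0.05. Tnfrsf9 and Tnfsf8 stand at 1.94 to 2.79, Ngfr is the 1 filled point below 0, and Tnf has the widest error bar.

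The genes through which these receptors signal were read from 5 lists, also drawn up with earlier results known. Of 55 genes tested, 11 rose, 7 fell and 37 did not pass, which is 32.7% called against 33% of all genes, and the median log2 fold change was 0.06. After median centring of the arrays 7 rose. Among all genes tested 17.5% were higher and 15.5% lower, and the counts by list below describe few genes each.

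Among adaptors and ubiquitin ligases, 2 of 11 rose and 3 fell. Traf1, an adaptor that binds TNF receptor 2 and 4-1BB among others, had 166 at the lowest, 272 at the median and 336 at the highest in IL3, and 416, 563 and 616 with SCF (log2 fold change 1.05 ± 0.16, adjusted p = 0.000363). All SCF arrays were above all IL3 arrays, and a second probe set gave 0.70. Birc3 and Birc2, the cellular inhibitors of apoptosis that work as ubiquitin ligases with TRAF2, had log2 fold changes of -0.51 ± 0.10 and -0.32 ± 0.06 (adjusted p = 0.00207 and 0.00173). Tradd and Traf6 were near the threshold, at 0.18 and -0.17 (adjusted p = 0.0496 and 0.046), and lost the call in 13 and 16 of 24 alternatives. The 3 other Traf6 probe sets gave between -0.70 and 0.14, and 1 of them was lower.

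In the death branch 1 of 7 rose and 0 fell. This was Mlkl, the effector of necroptosis, at 0.29 ± 0.09 (adjusted p = 0.0225), a call lost in 4 of 24 alternatives, 1 of which left out IL3 replicates 4 and 5 (adjusted p = 0.0785), and 1 of which had the replicate number as a block (0.0633). Casp8, the initiator caspase, had 0.06 ± 0.08 (adjusted p = 0.608). In Cflar, the inhibitor of caspase 8, the leading probe set did not pass (0.18) while others gave between -0.48 and 0.77, 1 of them higher and 2 lower.

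In the NF-kB and kinase branch 2 of 16 rose and 1 fell. Relb, the subunit of the noncanonical pathway, rose by 0.59 ± 0.15 (adjusted p = 0.0107), from 268 to 407 in IL3 to 336 to 634 with SCF. Rel, encoding c-Rel, had 645 to 1045 in IL3 and 397 to 644 with SCF, with no overlap (log2 fold change -0.62 ± 0.14, adjusted p = 0.00543). Map3k7, the kinase TAK1, rose by 0.28 ± 0.05 (adjusted p = 0.00112), a call that median centring removed (0.0587). The 5 other Map3k7 probe sets gave between 0.18 and 0.26, and only 1 of them passed. Rela had 0.11 ± 0.07 (adjusted p = 0.28).

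Among feedback inhibitors 2 of 13 rose and 3 fell. Zfp36 encodes tristetraprolin, which binds AU-rich elements of Tnf mRNA and hastens its decay. Its signal was 1843, 5818, 7754, 9996, 2538 and 6006 on IL3 replicates 1 to 6, and 2438, 520, 773, 905, 678 and 723 on IL3+SCF replicates 1 to 6. SCF replicate 1 lay within the IL3 range, and the other SCF arrays were below it (log2 fold change -2.45 ± 0.45, adjusted p = 0.00124). Replicates 3 and 4 were the highest IL3 arrays and 1 and 5 the lowest, as for Tnf. Nfkbiz, a nuclear IkB protein, had 6306 to 17020 in IL3 and 3875 to 5839 with SCF (log2 fold change -1.26 ± 0.23, adjusted p = 0.00108), and its other probe sets gave -0.77 and -0.69. Tnfaip3, the deubiquitinase A20, had -0.61 ± 0.13 (adjusted p = 0.00383), and a dimmer probe set gave -0.30 and did not pass. Otulin and Tnip2, a linear-chain deubiquitinase and an A20-binding protein, rose by 0.45 ± 0.08 and 0.41 ± 0.07. Nfkbia, encoding IkB alpha, had -0.03 ± 0.10 (adjusted p = 0.867).

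In the list of shedding and trafficking 4 of 8 rose and 0 fell, against 17.5% higher and 15.5% lower among all genes. The list was drawn up with earlier results known, so this count is a description. ADAM17 is the protease that cuts TNF and its receptors from the cell surface, and the iRhoms bring it there. Rhbdf2, encoding iRhom2, had 198 at the lowest, 297 at the median and 380 at the highest in IL3, and 467, 575 and 695 with SCF, with no overlap (log2 fold change 0.95 ± 0.16, adjusted p = 0.000696). Rhbdf1, encoding iRhom1, rose by 0.47 ± 0.11 (adjusted p = 0.00605). Adam17 itself, named after its values were seen, rose by 0.30 ± 0.06 (adjusted p = 0.00164), and its other probe sets gave 0.34 and 0.49. The fourth was Spg21, encoding maspardin, at 0.39 ± 0.08, which is not known as a part of TNF shedding.

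**Figure D4:**
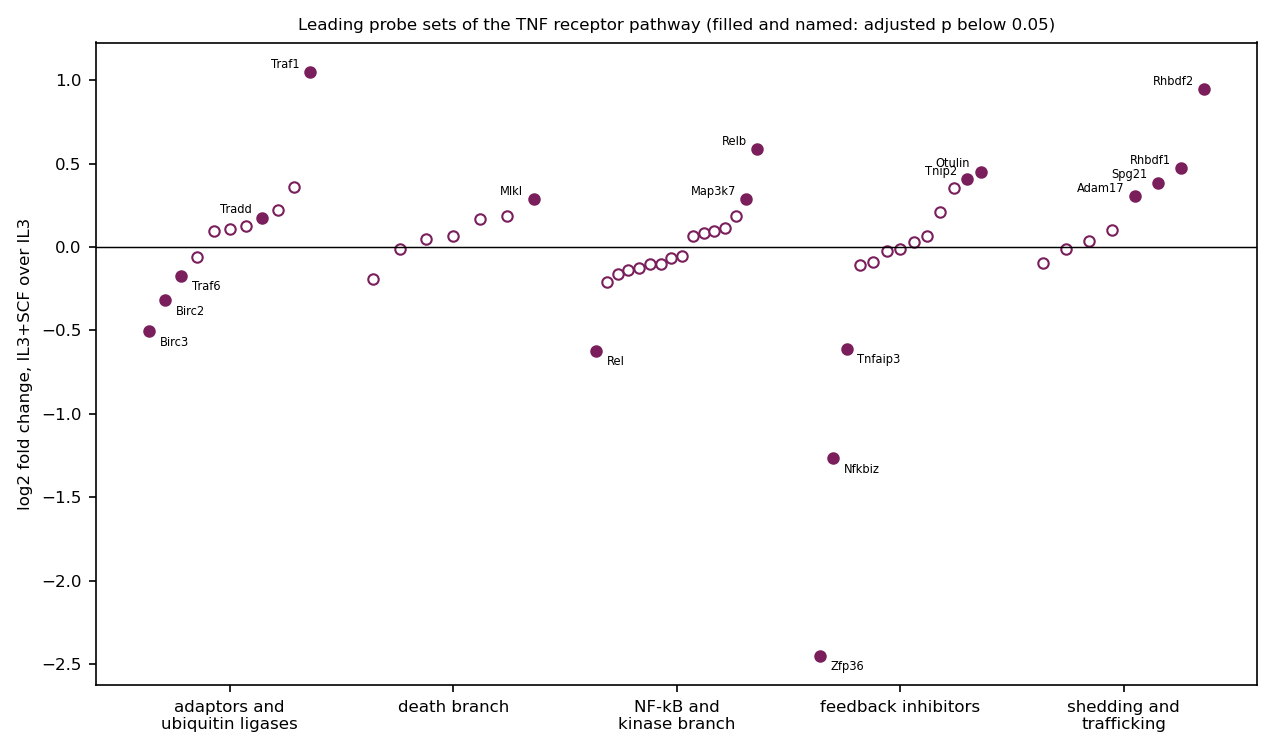
Log2 fold change of IL3+SCF over IL3 for the leading probe sets of 55 pathway genes in 5 lists, filled and named where the adjusted p is below 0.05. Traf1 (1.05) and Rhbdf2 (0.95) are the highest points and Zfp36 (-2.45) the lowest.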

How the data were processed

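Intensities per probe set were deposited on a linear scale, and for these the submitters' processing notes name GCOS 1.4. The sources used here give neither the background correction nor the scaling target. Every array had a mean of 1250.01 after trimming 2% from either end, which shows a shared scale. The log2 range of array medians was 0.43, below a limit of 0.5 for further normalization. Controls (64 probe sets) were left out of the tests. Probe sets were named from GEO's platform annotation, in which 34945 have 1 symbol, 932 several and 9211 none, and all 18 member probe sets matched the RefSeq table by gene identifier.

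Signals were taken as log2(signal + 16). Testing required a signal above the array's own 40th percentile on 6 or more arrays, which 27167 probe sets met. The test was limma 3.58.1 (R 4.3.3), two-sided and without covariates, with Benjamini-Hochberg adjustment over all of them, and the code was tested on simulated data. The intervals are at 95%. Figures were drawn with matplotlib 3.10.9.

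All members are named. The lists gave up to 3 risen and 3 fallen genes each, by size of change, and others, marked so or among Fasl, Tnfrsf8, Tnfrsf14, Casp8, Cflar, Rela and Nfkbia, were named after their values were seen. The members, lists, rule and alternatives were chosen with earlier results of these data known. Alternatives numbered 24. Leaving out IL3 replicates 4 and 5, or 3 and 6, was added after the data were seen because they stood apart.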

Additional observations from a re-analysis of the deposited data

Results flagged for a closer look

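In 28 groups of 6 values (14 tested probe sets in each culture), the lowest or highest array was compared with the rest by Dixon's test, which by chance marks about 1 in 20 groups. It marked 2, both for Tnfsf13b, the BAFF gene, and both on IL3 replicate 4. The signal of that array was 29.9 on 1460255_at, where the other IL3 arrays had 87.8 to 124, and 6.86 on 1445251_at, where they had 57.7 to 126. Both values are dim. IL3 replicate 4 also had the lowest dim level of the 12 arrays (61.1), and its part in these values was not tested.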

How the results depend on the processing

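The rises of Tnfrsf9 (1460469_at) and Tnfsf8 kept their direction and passed in all 24 alternatives. With 1 leading probe set per gene, which tests fewer features, 4050 were called, 2155 higher and 1895 lower, against 8398 probe sets, 4691 higher and 3707 lower. Pathway genes risen were 7 after median centring of the arrays. Other family genes risen were 3 with a 60th percentile filter, and 2 fell with no filter, where Tnfsf11 was tested. Leaving out 1 array at a time gave 2 to 3 members risen and 0 to 1 fallen, the latter Tnf without IL3 replicate 5. It gave 5 to 7 other family genes risen, 10 to 13 pathway genes risen and 6 to 7 fallen, and 7264 to 8899 probe sets called. Signs turned for Tnfsf10 1439680_at (-0.052 to 0.021 with 1 array left out, 0.034 without IL3 replicates 3 and 6) and Tnfsf13b 1460255_at (-0.16 to 0.17, and -0.15 without IL3 replicates 4 and 5), neither of which passed.

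The deviations of same-numbered arrays from the group means correlated at -0.24 to -0.01 for replicates 1, 2, 3 and 5 and at 0.31 for 4 and 6, and not every array correlated best with its own number, so the numbers were not taken to pair the samples. With the replicate block 6607 probe sets were called, and 2 members, 6 other family genes and 9 pathway genes rose. Dim signals limit Tnfrsf1a, Tnfsf13b and the untested family genes.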
